A study of Saccharomyces cerevisiae with 39 samples.

Results

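The genes described here encode the DNA replication machinery of budding yeast. They were chosen by name from the deposited count table, by a rule that uses no measured value. Earlier results of these data were known when the list was chosen. The list holds 49 open reading frames of the 6420 features in the table: the 6 subunits of the origin recognition complex (ORC), the 6 subunits of the MCM helicase, CDC6 and TAH11, 5 origin firing factors, the 4 GINS subunits, the subunits of the DNA polymerases alpha, epsilon and delta with CTF4, PCNA, the 3 RFA and 5 RFC subunits, 3 enzymes of the lagging strand, and the ribonucleotide reductase genes RNR1 and RNR2. All 49 were found in the table and all 49 passed the filter on low counts, which kept 5722 features.

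Chromosome replication starts at origins that ORC occupies. In G1, ORC, Cdc6 and Cdt1 (encoded by TAH11) load the ring-shaped MCM helicase onto DNA. In S phase, kinases and firing factors turn loaded MCM into an active helicase together with Cdc45 and GINS, after which polymerase alpha-primase makes primers, polymerase epsilon extends the leading strand and polymerase delta the lagging strand. Many of these genes are periodic in yeast, with a peak at the G1/S transition that is driven by the factor MBF through the MCB element. Abf1 is a general regulatory factor that binds a bipartite DNA motif in many yeast promoters, keeps nucleosomes off them, and was first described at replication origins.

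To see how synthesis of these mRNAs responds to loss of Abf1, newly made RNA was labelled with 5 mM 4-thiouracil for 6 min, pulled down and sequenced (4tU-seq) in 39 libraries. All cells were BY4742, MATalpha, with tor1-1, a deletion of FPR1 and RPL13A-FKBP12-NAT, grown in synthetic complete medium with glucose. In the tagged strain (Abf1, 33 libraries) the endogenous protein carried Abf1-FRB-yEGFP-3V5-hphMX4, so that rapamycin ties it to the ribosomal anchor and removes it from the nucleus. WT (6 libraries) is the parental strain without this tag. The groups named 0 min received solvent for 90 min, and the others 7.5 µM rapamycin, in Abf1 for 5, 10, 15 or 20 min and then for 30, 40, 50 or 60 min and for 75 or 90 min, and in WT for 90 min. Each of the 13 groups held 3 biological replicates, and p-values measure the spread between these. Total counts lay between 3500982 and 11266408 per library with a median of 5467295, of which the 49 genes together took 0.411% to 0.61%. In every library, each of the 49 genes had at least 26 counts, and the lowest medians over the libraries were those of RFA3 (55 counts, range 26 to 114), DPB4 (65, range 29 to 247), PSF3 (68, range 38 to 132) and PSF1 (86, range 37 to 172), where counting error was largest. The deleted FPR1 had no count in any library. The alpha-cell markers MF(ALPHA)1, MF(ALPHA)2, STE3 and SAG1 summed to 698 to 5167 CPM across the groups examined, against 6.02 to 14.3 CPM for the a-cell markers MFA1, MFA2, STE2 and BAR1. Levels below are normalized read counts (CPM, counts scaled to the normalized size of the library). No spike-in RNA is mentioned in the methods, so each level is relative to the labelled RNA of its library. No synchronization of the cultures is described, and fewer cells in a phase and less RNA per cell cannot be told apart.

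The stretch of 500 bases upstream of each start codon was searched on both strands for the Abf1 consensus, for its looser core (TCANNNNNNACG or TCGNNNNNNACG, which every consensus match also holds), for the MCB element (ACGCGT, the same on both strands) and for the SCB element (CACGAAA, the site of the related factor SBF). The Abf1 consensus was found in 5 of the 49 promoters (10.2%), against 1087 of 5996 yeast promoters (18.1%). The following windows of 30 bases show these 5 matches in capitals, each read 5′ to 3′ on the strand of its gene in assembly R64 (sacCer3, sequence from RefSeq). They are shown because the genes behind the first 4 are among those whose synthesis fell, while TAH11 was not called. The matches of TAH11 and RAD27 lie in the reverse orientation. By the rule for named genes, POL31 and POL12 were to be shown, and the other windows were added after their values were seen.
POL31 (chrX:449065-449094, plus strand, 129 bases upstream): agatttatATCATGTTATACGattaatcag
POL12 (chrII:153844-153873, minus strand, 255 bases upstream): tcatgttcATCGCCTCAAACGaatagagaa
RFA2 (chrXIV:48144-48173, plus strand, 135 bases upstream): agataattATCGCCATATACGaaacgcgtt
RAD27 (chrXI:226235-226264, minus strand, 381 bases upstream): tcacacctCGTTAACAGTGACtttcggtga
TAH11 (chrX:521886-521915, plus strand, 154 bases upstream): agctctgcCGTTGTGGGTGATatacaatta

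The MCB element was found in 22 of the 49 promoters (44.9%), and in 324 of all 5996 (5.4%). It occurred in 4 of the 5 promoters with the Abf1 consensus, the exception being TAH11. The Abf1 core alone, without the consensus, was present in 9 further members, and the SCB element in 7 of 49 (14.3%, against 7.12% of all promoters). The next windows show MCB matches in capitals for CDC45 and RNR1, whose promoters hold no Abf1 consensus, and in the POL31 promoter, where the element lies 107 bases upstream of the start codon, just downstream of the Abf1 match shown above.
POL31 MCB (chrX:449083-449112, plus strand): acgattaatcagACGCGTctgattaatttc
CDC45 MCB (chrXII:346074-346103, minus strand): acatatcatctaACGCGTtttaagaaattt
RNR1 MCB (chrV:298632-298661, plus strand): gttgaatagaggACGCGTaaaaacgatatg

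Synthesis of most replication genes was not called at any time, and a small group fell early. A feature was called when its adjusted p (edgeR quasi-likelihood test, Benjamini-Hochberg over all 5722 tested features) was under 0.01 and its fold change over 1.5. Against Abf1 0 min, 0 members were called lower at 5 min, where 0.507% of all tested features were. In that direction 3 members had an unadjusted p under 0.05, and DESeq2 called 0. After 10 min 2 members were lower (4.02% of all features), after 15 min 2 (6.85%) and after 20 min 3 (8.65%). The counts were 4 for 30 min (9.8%), 3 for 40 min (10.3%) and 5 for 50 min (10.6%). They were 4 after 60 min (11.1%) and 6 after 75 min (11.3%). At 90 min 10 of the 49 members (20.4%) were lower, against 11.3% of all features. In the main fit the share of members called was near or under that of all features up to 75 min, and above it at 90 min. Of the calls at 90 min, those of RFA2, CDC45, POL32 and RAD27 were lost in a fit on only the libraries compared. The share of all features called in that fit is not given here. In total 10 members were called lower at some time and 39 at none. No member was called higher at any time by edgeR or DESeq2 (unadjusted p under 0.05 for 0 to 3 members a time), while the share of all features called higher was 0, 0.245, 0.315, 0.629, 1.26, 1.49, 2.66, 2.74, 4.74 and 6.26% at 5 to 90 min. With the replicate number as a block, which is treated with CDC6, RFA3 was called higher at 75 min (log2 fold change 0.69, SE 0.21, adjusted p 0.00899).

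**Figure D1:**
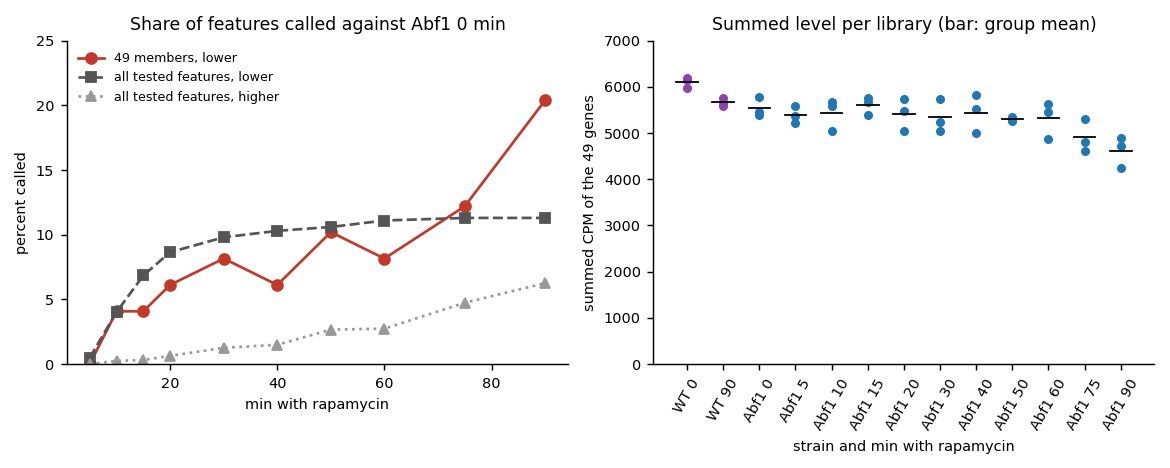
Left, the percentage of the 49 replication genes and of all 5722 tested features called lower, and of all features called higher, against minutes with rapamycin. Right, the summed CPM of the 49 genes in each library (points) with group means (bars); the 3 libraries of Abf1 90 min lie between 4235 and 4896 CPM, under every library of Abf1 0 min.

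Over the 49 genes, the log2 fold change had a median of -0.00055 at 20 min and -0.24 at 90 min, beside 0.06 and 0.04 over all tested features. At 90 min 41 of the 49 estimates (83.7%) were negative, against 46% of all features. Summed over the list, the level was 5549 ± 205 CPM at Abf1 0 min (SD, n = 3, range 5401 to 5783), 5416 ± 353 CPM after 20 min and 4617 ± 343 CPM after 90 min (range 4235 to 4896), so that the libraries of 0 and 90 min did not overlap. In WT the sum was 6106 ± 106 CPM with solvent and 5667 ± 93.3 CPM with rapamycin, also without overlap (5987 to 6190.3 and 5587 to 5769.7).

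None of the genes was called for rapamycin alone. Between WT 90 min and WT 0 min, 0 members were called lower and 0 higher, as were 0% of all features in either direction, with unadjusted p under 0.05 for 4 members in the lower and 1 in the higher direction and 0 calls with DESeq2. None was called for the tag alone either: between Abf1 0 min and WT 0 min, 0 members were called (0.28% of all features lower and 0.245% higher), with an unadjusted p under 0.05 for 6 members in the lower and 0 in the higher direction and 0 calls with DESeq2. The median of the 49 estimates in this comparison was -0.12, against -0.0057 over all features. Whether 90 min of rapamycin acted unequally in Abf1 and WT was tested with an interaction term, which called 5 members lower (8.83% of all features) and 0 higher (2.81%). These were POL31, DPB4, POL12, MCM7 and RAD27, a share near that of all features. A fit on only the 12 libraries compared also called 5, with RFA2 (log2 difference -0.70, adjusted p 0.00679) in place of RAD27 (adjusted p 0.0127).

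**Figure D2:**
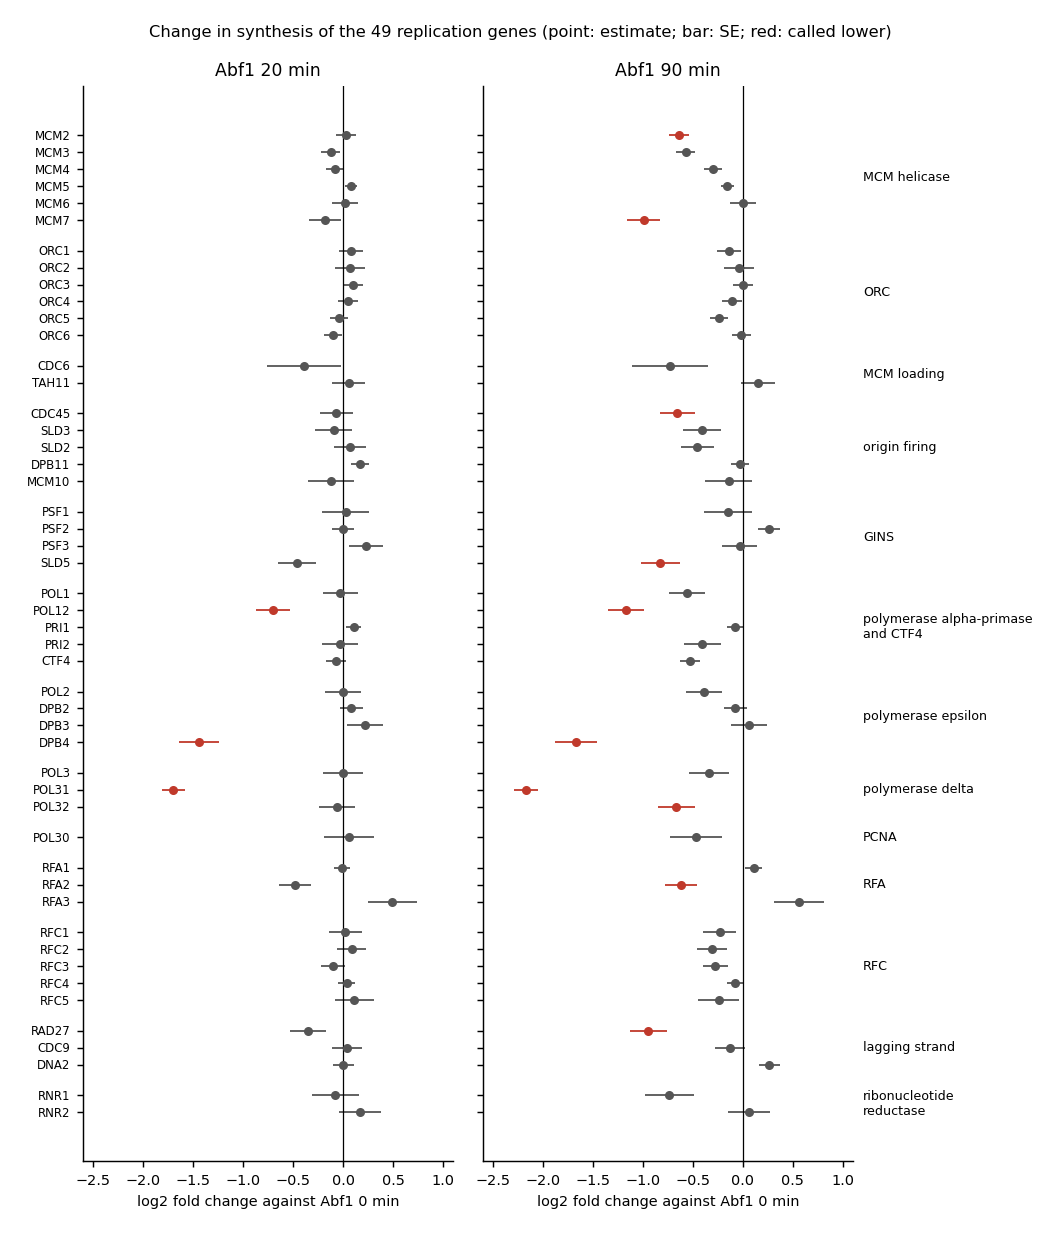
Log2 fold change (x axis) of each of the 49 genes at Abf1 20 min (left) and Abf1 90 min (right) against Abf1 0 min, grouped by complex; points are estimates, bars standard errors, and red marks genes called lower. At 20 min 3 genes are red, at 90 min 10, spread over 8 of the 13 groups.

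The subunits of the replicative polymerases held the earliest and the largest decreases, and in each complex a single accessory subunit fell early. At both 20 and 30 min exactly 3 members were called lower (8.46% of all features) and 0 higher (0.489%). They were POL31 of polymerase delta, DPB4 of polymerase epsilon and POL12 of polymerase alpha, whereas none of the catalytic subunits POL1, POL2 and POL3 was called at any time.

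POL31 (YJR006W, chromosome X, 449202 to 450665) encodes the second subunit of polymerase delta and is essential. Its level was 88.6, 81.8 and 76.3 CPM in the 3 libraries of Abf1 0 min, 25.6, 26.4 and 23.8 CPM at 20 min, and 14.5, 20.8 and 19.6 CPM at 90 min. It was 91.8, 88.4 and 111 CPM in WT 0 min and 94.7, 90.2 and 88.6 CPM in WT 90 min. All depleted libraries from 10 min on lay below all libraries of 0 min, in small steps: the group mean was 76.6 ± 6.01 CPM at 5 min (SD, n = 3), 60.2 ± 2.12 CPM at 10 min, 43.6 ± 3.34 CPM at 15 min and 14.5 ± 2.12 CPM at 50 min, its lowest. The log2 fold change was -0.45 at 10 min (SE 0.11, adjusted p 0.00511, under the fold limit), -1.70 at 20 min (SE 0.11, adjusted p 2.12e-13) and -2.17 at 90 min (SE 0.12, adjusted p 2.02e-15), where 22.3% of the 0 min level remained. The interaction was -2.08 (SE 0.16, adjusted p 1.2e-11), beside -0.09 for rapamycin in WT. Its divergent neighbour LSO1, 443 bases away, had a low level (0.677 ± 0.676 CPM at 0 min). The catalytic subunit POL3 had a log2 fold change of -0.00055 at 20 min and -0.34 at 90 min (adjusted p 0.196). POL32, the nonessential subunit that binds PCNA, was 86.1, 53.6 and 48.9 CPM at 0 min and 46.7, 32 and 40.6 CPM at 90 min. It was called at 90 min only (log2 fold change -0.66, SE 0.19, adjusted p 0.00587), with a high first replicate at 0 min. Without that library the log2 fold change was -0.42 (adjusted p 0.0974), and leaving out replicate 2 or 3 of 90 min also ended the call (adjusted p 0.0487 and 0.0138).

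DPB4 (YDR121W, chromosome IV, 693585 to 694175) encodes a histone-fold subunit of polymerase epsilon that is shared with a chromatin remodelling complex. It was 36.1, 25.5 and 24.4 CPM at Abf1 0 min, 12.6, 9.86 and 9.06 CPM at 20 min and 9.1, 9.46 and 8.35 CPM at 90 min, and 37.9, 40.5 and 46.3 CPM in WT 0 min and 30.3, 33 and 43.6 CPM in WT 90 min. It was low within 15 min, with 17.9 ± 3.84 CPM at 5 min and 9.47 ± 2.37 CPM at 15 min, and it stayed between 8.97 and 12.1 CPM in the group means from then on. The log2 fold change was -1.21 at 10 min (SE 0.20, adjusted p 3.84e-05) and -1.67 at 90 min (SE 0.21, adjusted p 1.17e-07), and the interaction -1.45 (SE 0.28, adjusted p 0.000211). It was called at 9 of the 10 times, all but 5 min. Before depletion the tagged strain was already at a lower estimate than WT, a difference that was not called (log2 fold change -0.53, SE 0.19, adjusted p 0.159). Its 500 bases upstream hold neither the Abf1 consensus nor the core, which says only that these letters are not in this window. The upstream region of 323 bases is shared with the divergent gene TRM1, a tRNA methyltransferase, which also fell. Its level was 69.9 ± 2.99 CPM at 0 min, then 22.7 ± 2.43 CPM by 20 min (log2 fold change -1.63, SE 0.13, adjusted p 8.67e-12) and 23.8 ± 1.15 CPM by 90 min. DPB3, the other histone-fold subunit, had a log2 fold change of 0.22 at 20 min and 0.06 at 90 min. The estimates at 90 min were -0.07 for DPB2 and -0.39 for the catalytic POL2 (adjusted p 0.0876).

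POL12 (YBL035C, chromosome II, 151493 to 153610) encodes the regulatory B subunit of polymerase alpha-primase. It was 65, 63 and 67.9 CPM at Abf1 0 min, 44.4, 36.6 and 39.4 CPM at 20 min and 29.3, 24 and 34.3 CPM at 90 min, and 96.4, 76.7 and 85.6 CPM in WT 0 min and 85.7, 88.3 and 82 CPM in WT 90 min. At 5 min it was already at 36.3, 48.4 and 49.4 CPM, all under the 0 min libraries, although the call came at 10 min (log2 fold change -0.79, SE 0.17, adjusted p 0.00148). Its decrease was partial: the log2 fold change was -0.70 at 20 min (SE 0.17, adjusted p 0.00273) and -1.17 at 90 min (SE 0.18, adjusted p 3e-06), where 44.5% remained, and -0.52 at 15 min, which was not called (adjusted p 0.045). The interaction was -1.15 (SE 0.24, adjusted p 0.000512). The calls at 10 and 20 min were weak, since leaving out replicate 3 of 10 min (adjusted p 0.0119) or replicate 2 or 3 of 20 min (adjusted p 0.0243 and 0.0136) ended them. The other genes of this complex were not called. At 90 min the catalytic POL1 had a log2 fold change of -0.56 (adjusted p 0.0166), the primase genes PRI1 and PRI2 -0.08 and -0.41, and CTF4, which links the primase to the helicase, -0.53 (SE 0.10, adjusted p 8.34e-05, under the fold limit).

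An exponential decrease fitted to the 33 tagged libraries gave a time constant of 4.47 min for DPB4 (95% interval 2.93 to 6.83 min), 5.65 min for POL12 (3.11 to 10.3 min) and 14.8 min for POL31 (12 to 18.2 min). In the paper the 6 min label was centred on each time. The constants of DPB4 and POL12 are shorter than that label, so their exact size cannot be read from these times. The level towards which the fit ran was 36% of the start for DPB4, 53.5% for POL12 and 15.7% for POL31. The interval of POL31 lies above that of DPB4, a description to which no test was applied. The fits treated the 33 libraries as independent. Same-numbered libraries deviated together at most times, which the intervals do not take into account. No order of POL12 and POL31 can be read from these fits. The rate of POL12, 0.177 per min, rested on single replicates and was 0.116 per min without replicate 1, 0.428 per min without replicate 2 and 0.0826 per min without replicate 3, the last within the interval of POL31 (0.0549 to 0.0834 per min). Fitted on the log2 scale, the rate was 0.0819 per min for POL12 and 0.0923 per min for POL31, which turns their order.

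**Figure D3:**
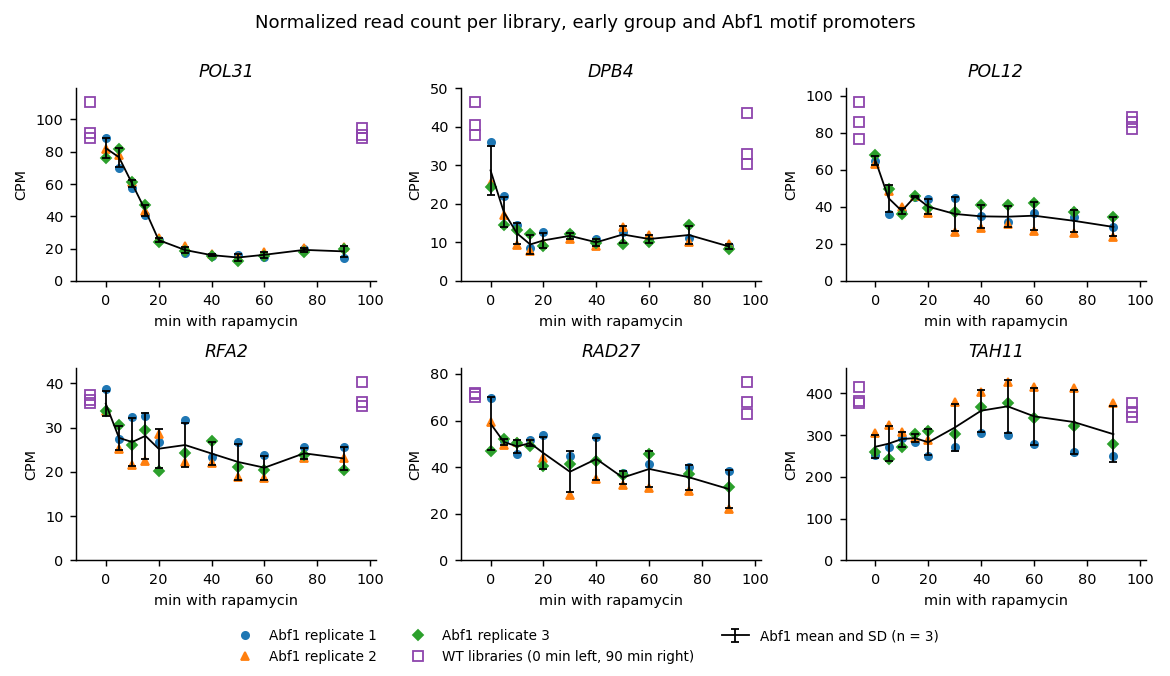
CPM (y axis, from 0) against minutes with rapamycin for POL31, DPB4, POL12, RFA2, RAD27 and TAH11; filled symbols are the 3 Abf1 replicates, the line joins group means with SD, and open squares are WT libraries with solvent (left) and rapamycin (right). POL31, DPB4 and POL12 drop within 20 min while the WT libraries stay high, RFA2 and RAD27 decline by less, and TAH11 lies between 250.1 and 378 CPM at 90 min.

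Single-stranded DNA is covered by replication protein A, made of the RFA1, RFA2 and RFA3 products. Of these genes RFA2 was called. RFA2 (YNL312W, chromosome XIV, 48287 to 49216) was 38.8, 33.8 and 33.7 CPM at Abf1 0 min, 26.8, 28.6 and 20.3 CPM at 20 min and 25.6, 23.1 and 20.4 CPM at 90 min, against 36.2, 35.6 and 37.5 CPM in WT 0 min and 34.9, 40.4 and 35.9 CPM in WT 90 min. Depleted and control libraries did not overlap at 20 or 90 min, nor at 5 min (27.4, 25.1 and 30.6 CPM), where the gene was not called. The gene was called at 50, 60 and 90 min (log2 fold change -0.66, -0.76 and -0.62, adjusted p 0.00213, 0.000453 and 0.00346), but its interaction was not called (-0.64, SE 0.23, adjusted p 0.0431). The call at 90 min was lost without replicate 1 of 0 min or replicate 2 or 3 of 90 min (adjusted p 0.0146, 0.0113 and 0.0204), and that at 50 min without replicate 1 of 0 min or replicate 2 or 3 of 50 min (adjusted p 0.0122, 0.022 and 0.0121). EMW1, which starts 264 bases away on the other strand, was 199 ± 19.9 CPM at 0 min and 106 ± 17.9 CPM at 90 min (log2 fold change -0.91, adjusted p 0.000188). RFA1 (YAR007C, chromosome I), the large subunit, was 211, 192 and 176 CPM at 0 min and 221, 204 and 199 CPM at 90 min, with overlapping groups (log2 fold change 0.11, SE 0.08, adjusted p 0.327). RFA3, the small subunit, was not called at 90 min either (log2 fold change 0.56, SE 0.25, adjusted p 0.0772).

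Lagging strand synthesis leaves RNA-containing flaps that the nuclease Rad27 cuts and ligase Cdc9 seals. RAD27 (YKL113C, chromosome XI, 224727 to 225875) was 69.9, 59.2 and 47.1 CPM at Abf1 0 min, 53.8, 43.9 and 40.4 CPM at 20 min and 38.4, 21.9 and 31.7 CPM at 90 min, and 70.2, 71.5 and 71.9 CPM in WT 0 min and 76.6, 63 and 68 CPM in WT 90 min. The replicates of 0 min were wide apart. The depleted libraries overlapped with them at 20 min and lay below all of them at 90 min. It was called at 30, 50, 75 and 90 min (log2 fold change at 90 min -0.94, SE 0.18, adjusted p 0.000127) and in the interaction (-0.91, SE 0.25, adjusted p 0.00911). The interaction call was lost when any of 9 of the 12 libraries was left out, with adjusted p up to 0.0455, the exceptions being replicate 2 of WT 90 min, replicate 3 of Abf1 0 min and replicate 1 of Abf1 90 min. Replicate 1 of 0 min ended the calls at 30, 50 and 75 min when left out (adjusted p 0.0753, 0.026 and 0.0196), as did replicate 2 of each of these times (adjusted p 0.113, 0.0174 and 0.0188), and at 30 min also replicate 2 of 0 min and replicate 3 of 30 min (adjusted p 0.0236 and 0.0137). RAD27 faces ABF1 itself across 694 bases. ABF1 was not called (732 ± 64.9 CPM at 0 min and 885 ± 137 CPM at 90 min, log2 fold change 0.27, adjusted p 0.0753). CDC9 and DNA2, a nuclease-helicase for long flaps, had log2 fold changes of -0.13 and 0.27 at 90 min (adjusted p 0.556 and 0.0429).

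Other members were called at 75 or 90 min only, which does not mark when their decrease began. The late calls were clearest in the MCM helicase, whose subunits form a ring of 6 different proteins in equal number. Levels per kb of gene differed little between the 6 at Abf1 0 min (63.1 CPM per kb for MCM7 to 101 CPM per kb for MCM3) and more at 90 min (31.7 CPM per kb for MCM7 to 71.5 CPM per kb for MCM6). MCM7 (YBR202W, chromosome II, 625772 to 628309) was 172, 158 and 149.8 CPM at 0 min, 161, 123 and 138 CPM at 20 min, 113, 73.8 and 93.2 CPM at 75 min and 100.3, 67.1 and 74.3 CPM at 90 min. It was 204, 192 and 196 CPM in WT 0 min and 192, 186 and 179.8 CPM in WT 90 min. The log2 fold change was -0.19 at 20 min (adjusted p 0.564), -0.78 at 75 min (adjusted p 0.000312) and -0.99 at 90 min (SE 0.17, adjusted p 1.5e-05), and the interaction -0.91 (SE 0.23, adjusted p 0.00393). The interaction call was lost without replicate 2 of WT 0 min, replicate 1 of WT 90 min, replicate 1 of Abf1 0 min or replicate 2 or 3 of Abf1 90 min (adjusted p up to 0.0203). MCM2 (YBL023C), named after its values were seen, was 177, 203 and 181 CPM at 0 min and 128, 108 and 125 CPM at 90 min (log2 fold change 0.03 at 20 min and -0.64 at 90 min, SE 0.10, adjusted p 6.02e-06), with 184, 177 and 178 CPM in WT 90 min. MCM3, MCM4 and MCM5 had log2 fold changes of -0.57, -0.30 and -0.16 at 90 min and were under the fold limit, and MCM6 had -0.0013. MCM3 lay close to that limit and was called with DESeq2, with RLE size factors and without the low count filter (log2 fold change -0.59 in each).

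**Figure D4:**
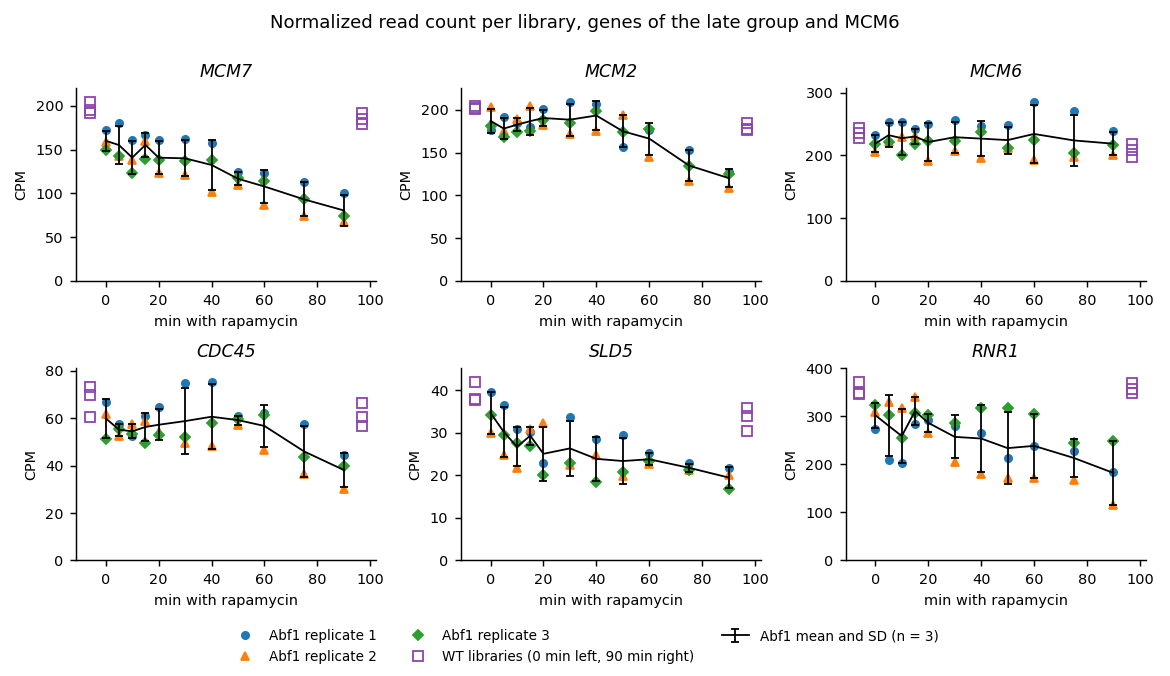
CPM (y axis, from 0) against minutes with rapamycin for MCM7, MCM2, MCM6, CDC45, SLD5 and RNR1, with symbols as in the plot of the early genes. MCM7, MCM2 and CDC45 are lowest at 75 and 90 min, MCM6 stays between 201 and 238 CPM at 90 min, and replicate 2 is the lowest of the RNR1 replicates from 20 min on.

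To test the late decrease on its own, Abf1 90 min was compared with Abf1 30 min, a comparison added after the data were seen. Of the members, 2 were called lower (1.42% of all features) and 0 higher (1.36%), namely MCM2 (log2 fold change -0.65, SE 0.10, adjusted p 4.95e-05) and MCM7 (-0.80, SE 0.17, adjusted p 0.00141). Without replicate 1 of 30 min or replicate 2 of 90 min neither passed both limits (MCM2 -0.57 and -0.58, under the fold limit, and MCM7 adjusted p 0.017 and 0.0216), and without replicate 3 of 90 min MCM7 did not (adjusted p 0.0142). In a fit on only the 6 libraries compared neither was called (adjusted p 0.0617 for MCM2 and 0.0962 for MCM7). With the replicate number as a block both were, and CDC45 was called as well (log2 fold change -0.62, adjusted p 0.00161). The median of the 49 estimates was -0.24, beside -0.00046 over all features, and 43 (87.8%) were negative, against 50.1% of all features. The genes that fell early had estimates of -0.07 (POL31), -0.31 (POL12) and -0.38 (DPB4) over this interval, and none of them was called.

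Among the factors that act before and at firing, few changed. The 6 ORC genes, including ORC1, which recruits Cdc6, and ORC6, had log2 fold changes from -0.10 to 0.10 at 20 min and from -0.24 (ORC5) to 0.0026 (ORC3) at 90 min, and none was called. CDC6 (YJL194W, chromosome X), the loader that cells destroy in S phase, was 45.7, 33.1 and 28.9 CPM at 0 min, 39.6, 21.6 and 20.9 CPM at 20 min and 30.2, 14.9 and 19.9 CPM at 90 min, with 24.1, 28.4 and 27.9 CPM in WT 0 min and 28.3, 24.4 and 24.8 CPM in WT 90 min. Replicate 1 was the highest of each Abf1 group, so the groups overlapped and the gene was not called at 90 min (log2 fold change -0.73, SE 0.38, adjusted p 0.137). With the replicate number as a block it was called at 30, 40, 50, 60, 75 and 90 min (at 90 min log2 fold change -0.76, SE 0.21, adjusted p 0.00367). TAH11 (YJR046W, chromosome X, 522048 to 523862), which carries an Abf1 consensus match, was 252, 304 and 261 CPM at 0 min, 249, 288 and 311 CPM at 20 min and 250.1, 378 and 279 CPM at 90 min (log2 fold change 0.15, SE 0.17, adjusted p 0.508). Its groups overlapped at both times. In WT 0 min it was at 376, 415 and 382 CPM, above all Abf1 0 min libraries (log2 fold change of Abf1 against WT -0.52, SE 0.17, adjusted p 0.0949).

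Of the firing factors, CDC45 (YLR103C, chromosome XII), a part of the active helicase, was 67, 61.9 and 51.1 CPM at 0 min and 44.5, 30.3 and 39.7 CPM at 90 min. It was called at 90 min only (log2 fold change -0.66, SE 0.17, adjusted p 0.0035), and not without replicate 1 or 2 of 0 min or replicate 2 of 90 min (adjusted p 0.0185, 0.01 and 0.0376). Like MCM2 and POL32 it was named after its values were seen. SLD2, SLD3, DPB11 and MCM10 were not called, with -0.45, -0.41, -0.03 and -0.14 at 90 min. Of the 4 GINS genes, SLD5 (YDR489W, chromosome IV, 1431012 to 1431896) fell from 39.7, 30.0 and 34.3 CPM at 0 min to 21.6, 20.2 and 16.7 CPM at 90 min (log2 fold change -0.83, SE 0.19, adjusted p 0.00106), with no overlap between the groups. Its group mean was 34.7 CPM at 0 min, already 25.1 CPM at 20 min, and 19.5 CPM at 90 min. Values at 20 min (22.9, 32.3 and 20.1 CPM) still overlapped with those of 0 min. SLD5 was also called at 75 min, a call that was lost without any library but replicate 2 of 0 min (adjusted p 0.0101 to 0.0288), and its interaction was not called (-0.59, SE 0.27, adjusted p 0.121). WT was 37.9, 37.9 and 42 CPM with solvent and 36, 33.9 and 30.3 CPM with rapamycin. PSF1, PSF2 and PSF3 had -0.15, 0.26 and -0.03 at 90 min and were not called.

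POL30 (YBR088C, chromosome II), which encodes the sliding clamp PCNA, was 47.7, 37.1 and 28.9 CPM at 0 min, 49.2, 38.2 and 30.7 CPM at 20 min and 30.0, 22.7 and 29.9 CPM at 90 min, with 33.6, 40.0 and 33 CPM in WT 0 min and 43.1, 47.4 and 36.2 CPM in WT 90 min. The groups overlapped and no time was called (at 90 min log2 fold change -0.47, SE 0.26, adjusted p 0.164). The clamp loader genes RFC1 to RFC5 ranged from -0.10 to 0.11 at 20 min and from -0.31 (RFC2) to -0.07 (RFC4) at 90 min, with none called.

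Neither of the ribonucleotide reductase genes, which supply deoxynucleotides, was called at 90 min. RNR1 (YER070W, chromosome V), the cell-cycle regulated large subunit, was 274, 309 and 324 CPM at 0 min, 291, 266 and 302 CPM at 20 min and 183, 115 and 248 CPM at 90 min, with 372, 348 and 347 CPM in WT 0 min and 358, 369 and 349 CPM in WT 90 min. At 90 min all 3 libraries lay below those of 0 min, but they were far apart and the gene was not called (log2 fold change -0.73, SE 0.24, adjusted p 0.0176). It was called with the replicate number as a block (-0.76, SE 0.22, adjusted p 0.00481) and with DESeq2 (adjusted p 0.00944). RNR2 (YJL026W, chromosome X), the small subunit, was 88.3, 100.6 and 102 CPM at 0 min, 99.4, 112 and 115 CPM at 20 min and 77.7, 133 and 92.4 CPM at 90 min, with 104, 117 and 100.5 CPM in WT 0 min and 129, 117 and 119 CPM in WT 90 min. Its groups overlapped at 90 min (log2 fold change 0.06, SE 0.21, adjusted p 0.842).

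In most groups 1 replicate of the tagged strain was the lowest for many of these genes. It was replicate 2 for 32 of the 49 genes at 30 min, for 33 at 40, 60 and 75 min, for 31 at 90 min and for 22 at 50 min. It was replicate 3 for 25 genes at both 0 and 15 min, for 23 genes after 5 min and for 31 genes after 10 min. Without replicate 2 of 90 min the log2 fold changes at 90 min were -0.55 for CDC45 and -0.56 for POL32, neither of them called. MCM2, MCM7, SLD5, RAD27, POL12, DPB4 and POL31 were called at 90 min also when any of the 6 libraries compared was left out. A fit on only these 6 libraries ended the calls of RFA2, CDC45, POL32 and RAD27 at 90 min (adjusted p 0.0191, 0.0253, 0.0677 and 0.0152).

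The calls are given next by promoter element, as counts beside those of all tested genes, with no test of a difference between members with and without an element. Of the 5 members with the Abf1 consensus, 2 were called lower at 20 min and 4 at 90 min, where 40.5% and 45.4% of the 1057 tested genes with this match were. Of the 44 others, 1 and 6 were, against 1.3% and 3.52% of 4546 genes. Of the 22 members with an MCB element, 2 were called lower at 20 min and 6 at 90 min (CDC45, POL12, POL31, POL32, RFA2 and RAD27), against 6.09% and 12.8% of the 312 tested genes with the element. The median log2 fold change of the 22 was -0.03 at 20 min and -0.46 at 90 min, and that of all 312 genes 0.06 and -0.13. Of the 27 members without it, 1 was lower at 20 min and 4 at 90 min (MCM2, MCM7, SLD5 and DPB4), against 8.85% and 11.3% of 5291 genes, with a median of 0.02 and -0.14. Of the 7 members with SCB, 0 were lower at 20 min and 3 at 90 min (MCM7, SLD5 and RAD27), against 11.7% and 13.6% of all 411 genes with this element. Of the 42 members without it, 3 and 7 were, against 8.46% and 11.2% of 5192 genes.

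Genes around replication that are not among the 49 were counted from lists fixed by symbol. At 20 min no gene of these lists was called, where 8.65% of all tested features were lower. The counts at 90 min stand beside 11.3% of all tested features called lower and 6.26% called higher. At 90 min 1 of 6 firing kinase and S-phase regulator genes was lower (CDC7, the catalytic subunit of the kinase that phosphorylates MCM, log2 fold change -0.70, adjusted p 0.00233), 2 of 9 G1/S transcription regulators and G1 cyclins (SWI4, the DNA-binding subunit of SBF, -0.71, adjusted p 0.000366, and STB1, -0.74, adjusted p 0.00109), 1 of 12 checkpoint and fork protection genes (ELG1, which unloads PCNA, -0.90, adjusted p 0.000148) and 1 of 4 genes of replication-coupled nucleosome assembly (RLF2, a subunit of chromatin assembly factor 1, -0.82, adjusted p 0.000894). Of 9 other deoxynucleotide synthesis genes and 6 topoisomerase and primer removal genes, 0 were called. No gene of these lists was higher at 90 min. The edgeR interaction at 90 min called 0 genes of these lists lower and 0 higher, where 8.83% and 2.81% of all features were called. Its adjusted p was 0.0674 for CDC7, 0.118 for SWI4, 0.215 for STB1, 0.0364 for ELG1 and 0.16 for RLF2.

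Some markers of cell cycle phase were also called at 90 min, where 11.3% of all tested features were lower. Of 8 G2/M genes 3 were lower (CLB1 -1.51, CLB2 -1.01 and BUD4 -0.64), and their summed level was 1335 to 1517 CPM in the libraries of 0 min and 859.8 to 1149.9 CPM at 90 min. Of 8 M/G1 genes 3 were lower (AMN1 -1.23, CTS1 -1.12 and DSE2 -0.88), with a sum of 3129 to 4660.4 CPM at 0 min and 1921 to 3028 CPM at 90 min. Of 10 G1/S genes 1 was lower (YOX1 -1.48), with overlapping sums of 809 to 1011 and 463 to 894 CPM, and of 9 histone genes of S phase 0 were (1921 to 2031 and 1699.8 to 2623 CPM). At 20 min no gene of these phase lists was called. The part of a change in phase shares in the late decrease of the replication genes was not tested.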

How the data were processed

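Labelled RNA of 39 libraries was used. Per the submitters' notes, the authors aligned reads to sacCer3 with HISAT2 2.0.5, kept each identifier combination once and assigned reads with featureCounts (Subread 1.6.5) to features merged with published start sites. The authors deposited raw counts, with no normalization. Whether counting used strand was not stated, and 0 of the 49 genes overlap another gene in the annotation. The deposited table of the authors' own comparisons (fold changes on the log2 scale and p-values, DESeq2 1.10.1) was not used.

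One edgeR 4.0.16 fit (quasi-likelihood F-test, robust, TMM, filterByExpr with minimum count 10; R 4.3.3) covered all libraries with a coefficient per group. CPM used TMM-adjusted library sizes, except that sums of phase, mating type and other lists used total counts. DESeq2 1.42.0 was an alternative. Scripts were tested on simulated data. The biological coefficient of variation was 15.6%. Decrease rates came from y = yf + (y0 - yf) exp(-k t) on counts scaled to the median total.

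The members and lists were chosen with earlier results of these data known. Every gene was to be accounted for by complex. Full values went to members called at 2 or more times or in the interaction, and to CDC6, RNR1, RNR2, POL30 and RFA1. List genes called at 20 or 90 min were named, at most 3 a list, as was ABF1. Other named genes (MCM2, CDC45, POL32, TAH11, TRM1, EMW1, LSO1, and further uncalled subunits) were chosen after their values were seen. Same-numbered libraries deviated together at all times against 0 min (lowest correlation 0.247) except 50 min (0.0849). They did not pair in WT (0.0606) or between the strains (0.0744). No label says that a number marks a shared culture. The main fit and all its calls therefore held no replicate term, and the replicate number as a block was an alternative.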

Additional observations from a re-analysis of the deposited data

Results flagged for a closer look

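For 5 members the effect of 90 min of rapamycin differed between the tagged strain and WT by a test of the difference itself (edgeR interaction term, adjusted p under 0.01). That is 5 of 49, near the 8.83% of all tested features called lower by the same term. On the log2 scale the differences were -2.08 for POL31, -1.45 for DPB4, -1.15 for POL12, -0.91 for MCM7 and -0.91 for RAD27. All 3 tagged libraries of 90 min lay under all 3 of 0 min for each of these genes, and for 18 of the 49 members in all. The same libraries enter the interaction, so this lack of overlap is no separate support. In WT, where no feature was called, 15 members were lower without overlap. The share of all features without overlap was not counted, so neither count can be read as a result about the members. The interaction values for POL31, DPB4 and POL12 passed the threshold when any of the 12 libraries was left out, with adjusted p up to 2.02e-10, 0.0014 and 0.00331. Those for MCM7 and RAD27 did not pass without 5 and 9 of the 12 libraries, respectively, and that for RAD27 also not in a fit on only these libraries (adjusted p 0.0127).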

How the results depend on the processing

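Of the counts of members and the rates recomputed under the alternatives, 342 values stayed within 1.5 times or within the spread and 21 moved, and no direction turned. With DESeq2, RLE size factors or no low count filter, every count of members called stayed within 1.5 times, with 11 to 12 members lower at 90 min. A fit on only the libraries compared called 2 members lower at 30 min, 3 at 50 min, 6 at 90 min and 0 for 90 against 30 min, and in the interaction it replaced RAD27 by RFA2. The shares of all features called under these alternatives are not given here, so the counts cannot be set beside a background. Leaving out 1 library in turn gave 1 to 2 lower at 10 min, 3 to 6 at 50 min (3 without replicate 1 of 0 min or replicate 2 of 50 min), 3 to 5 by the interaction and 0 to 3 for 90 against 30 min. The interaction count fell to 3 without replicate 2 of WT 0 min, replicate 1 of WT 90 min, replicate 1 of Abf1 0 min or replicate 2 or 3 of Abf1 90 min. On the log2 scale the rate was 0.0819 per min for POL12 and 0.0923 per min for POL31, so that the order of these rates turned, and without single replicates that of POL12 ranged from 0.0826 to 0.428 per min. The cause of these shifts was not tested.

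With the replicate number as a block, 1 member (RFA3) was higher at 75 min. CDC6 at 30, 40, 50, 60, 75 and 90 min, RNR1 at 90 min and CDC45 for 90 against 30 min were called lower, and no other call changed under this block. Of the single genes at 20 and 90 min, RFA2, CDC45, POL32 and RAD27 at 90 min failed the threshold when only their own libraries were fitted (adjusted p 0.0191, 0.0253, 0.0677 and 0.0152). The lowest counts, 26 to 114 per library for RFA3 and 29 to 247 for DPB4, limit what can be seen in these genes.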
